A study of Xenopus laevis with 96 samples.

Results

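The data described here compare untreated Xenopus laevis embryos at mid gastrula with untreated embryos of the same clutches at late gastrula. The members were the 12 control libraries, of 96 libraries in the series, that the labels place 1.5 h and 3 h after washing, with 6 libraries at each time point. Each library came from 5 to 10 staged whole wildtype embryos of undetermined sex, pooled, and each of the 6 clutches, A to F, came from 1 female. Control embryos went through the same 2 h before the wash as the other groups but received no compound. The labelled stage at 1.5 h was 11.5 in clutch A and 11 in clutches B to F. At 3 h it was 12 in clutches A, D, E and F and 11.5 in clutches B and C, so that the 3 h libraries of clutches B and C carry the stage that clutch A carried at 1.5 h. Control libraries at 0 h (stage 10.25) and 4.5 h served only to show where the step differs. So did the 1.5 h and 3 h libraries of treated embryos of the same clutches. These had been kept for the 2 h before the wash with 10 nM retinoic acid (RA), 50 μM DEAB (an inhibitor of the retinaldehyde dehydrogenases that make RA) or 0.5% ethanol. The study kept for sequencing only clutches in which both RA and DEAB had changed RA-responsive genes by qPCR, so the 6 clutches are a selected set.

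Gastrulation turns a ball of cells into an embryo with 3 germ layers. Cells of the marginal zone roll inside through the blastopore to form mesoderm and endoderm, led by the dorsal organizer, which secretes antagonists of BMP, Wnt and Nodal signals. The ectoderm left outside is divided into neural plate and epidermis, with the neural border between them, and the body axis is given front to back identities in which hox and cdx genes, RA, Wnt and FGF take part. Over the same period maternal transcripts are removed and the cell cycle lengthens. X. laevis carries many genes as a pair of homeologs, L and S, inherited from the parental species of an ancient hybridisation, and they are counted here as separate genes. Reads of near-identical copies may have been split between them, so values of a single homeolog carry that uncertainty.

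The total count per library was 6854309 to 14570310 at 1.5 h (median 11419200) and 8690948 to 13018570 at 3 h (median 11603880), and the 20 most counted genes took 5.3% to 10.4% and 5.69% to 9.24% of it. None of the 30 pairs of libraries within a time point was identical. The ectoderm marker gata2.L, the mesoderm marker t.L and the endoderm marker sox17a.S were counted in every library. Of 35 symbols on a list of differentiated tissue markers (globins, albumin, insulin and the like), 3 genes were found and tested. Symbols were known only for genes of the deposited log2 values, from which the authors had removed weakly expressed genes. The absence of the other markers was therefore not tested. The levels below are CPM, counts scaled to a common library total, and in pooled whole embryos, fewer cells of a type and less RNA per cell cannot be told apart, and RNA per embryo was not measured. Clutch C stood apart from the other clutches. Of the 1079 genes that rose at least 2-fold, clutch C had the lowest of the 6 levels for 660 at 1.5 h and for 630 at 3 h, and of the 496 genes that fell at least 2-fold it had the highest level for 339 at 1.5 h and for 224 at 3 h. Results that rest on it are given with and without it.

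Within 1.5 h, 55.02% of the genes tested changed. Of 18554 genes tested, of 31430 in the table, 5074 (27.3%) rose and 5135 (27.7%) fell at an adjusted p under 0.05 (edgeR quasi-likelihood test with clutch as a block, Benjamini-Hochberg adjustment). The falls were as many as the rises but smaller: 1079 genes (5.82%) rose at least 2-fold and 496 (2.67%) fell at least 2-fold, and at 4-fold the counts were 200 and 5. The median log2 fold change was 0.57 among genes that rose and -0.52 among genes that fell, against a median of -0.02 and a median size of 0.32 over all genes tested, with a median standard error (SE) of 0.11. Of the called genes, 8396 moved the same way in 6 of 6 clutches.

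The split between rises and falls depended on how libraries were scaled. With the TMM factors used here 49.7% of the calls were rises, and with plain total counts 37.7% were (4047 rises and 6693 falls), with the median over all genes at -0.12. Direction also went with level. Among the 648 genes with an average above 8 on the log2 CPM scale, 388 rose and 73 fell, whereas among the 5807 genes between 4 and 6 the falls led, with 2177 against 1450 rises. Large changes in either direction were more frequent among rare transcripts. Of the 3828 genes between 0 and 2 on that scale, 471 rose and 159 fell at least 2-fold. Of the 648 above 8, 14 rose and 0 fell by as much.

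Despite these counts, few genes separated the time points completely. The 6 libraries at 3 h all lay above the 6 libraries at 1.5 h for 493 genes (2.66%) and all lay below them for 434 genes (2.34%). Without clutch C, which was added after seeing the data, the counts were 1157 (6.24%) and 865 (4.66%), and leaving out each of the other clutches gave 637 to 805 and 554 to 748. The block on clutch carried much of the sensitivity: without it 1511 genes rose and 1189 fell.

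**Figure D1:**
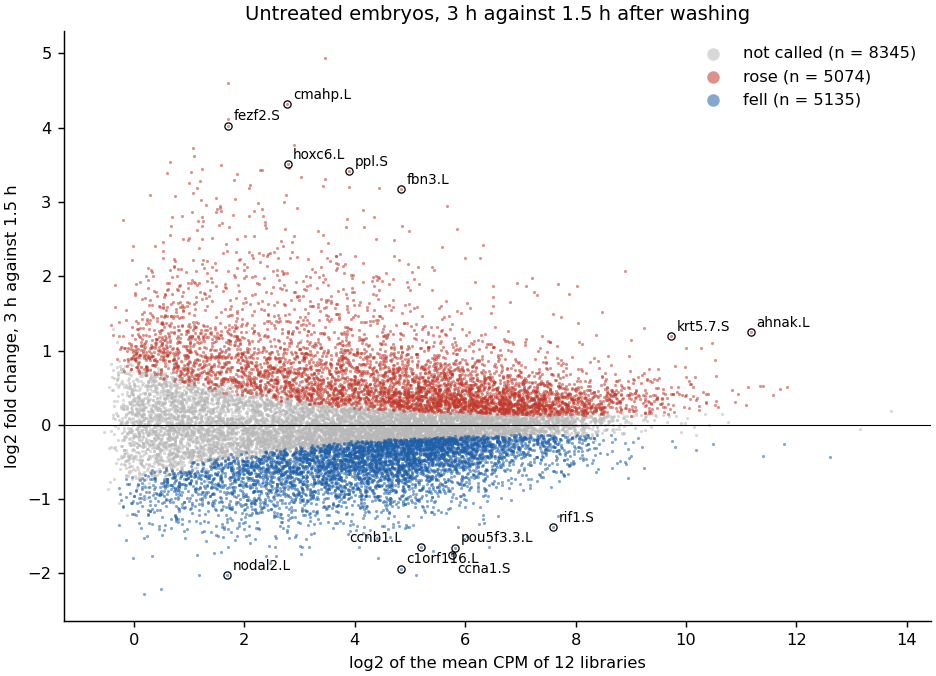
Each point is 1 of the 18554 genes tested, with the log2 of its mean CPM over the 12 libraries on the x axis and its log2 fold change from 1.5 h to 3 h on the y axis, coloured by whether it rose, fell or was not called. The rises reach further from 0 than the falls and the largest of them lie at low levels.

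Ranked here were genes with a name other than a bare locus number that moved the same way in all 6 clutches. They averaged at least 5 CPM at the higher time point. The 12 largest rises were of transcripts that were rare at mid gastrula, with medians of 0.219 to 4.78 CPM at 1.5 h. By textbook role they include genes of the forebrain (fezf2.S), posterior axis (hoxc6.L and hoxc6.S), epidermis (tp63.S, ppl.S, itln1.L) and RA degradation (cyp26c1.S). Where in the embryo they rose was not measured. The largest under these conditions was cmahp.L, which is named for the enzyme that hydroxylates a sialic acid precursor. Its level was 0 to 2.13 CPM (median 0.451) at 1.5 h and 1.58 to 31.7 CPM (median 9.99) at 3 h, a log2 fold change of 4.32 ± 0.27 (SE, n = 6 clutches, adjusted p = 2.75e-07, edgeR). The ranges overlapped because clutch C at 3 h (1.58 CPM) lay below clutch A at 1.5 h (2.13 CPM). For fezf2.S, a zinc finger repressor of the forebrain, the level went from 0.137 to 1.01 CPM (median 0.219) to 2.02 to 12.7 CPM (median 5.51), with a log2 fold change of 4.03 ± 0.27. No 3 h library overlapped a 1.5 h library for this gene.

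The posterior gene hoxc6 rose through both homeologs. For hoxc6.L the levels were 0.105 to 2.44 CPM (median 1.07) and 3.15 to 24.7 CPM (median 12.5), without overlap, and the log2 fold change was 3.51 ± 0.21. For hoxc6.S they were 0 to 2.23 CPM (median 0.503) and 0.789 to 14.6 CPM (median 6.69), with a log2 fold change of 3.38 ± 0.24. Clutches B (1.92 CPM) and C at 3 h lay within the 1.5 h range of hoxc6.S, whose upper end was clutch D.

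Epidermal genes made up a further group. The transcription factor tp63.S, which maintains basal epidermal cells, went from 0.315 to 11.7 CPM (median 3.82) to 9.37 to 64.5 CPM (median 37.1), a log2 fold change of 3.19 ± 0.20. Periplakin, ppl.S, which ties keratin filaments to desmosomes, went from 0 to 6.01 CPM (median 2.25) to 3.33 to 46.7 CPM (median 26.7), a log2 fold change of 3.41 ± 0.24. Intelectin, itln1.L, a lectin secreted by the embryonic skin, went from a median of 0.967 CPM to one of 12.9 CPM (3.33 ± 0.20). In each of these 3 genes clutch C had the lowest level at 3 h, and it was the only 3 h library within the 1.5 h range of each.

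The RA-degrading enzyme cyp26c1.S stood at 0.41 to 6.58 CPM (median 2.71) at 1.5 h and at 11.6 to 41.1 CPM (median 24.1) at 3 h, and its log2 fold change was 3.2 ± 0.25. The groups did not overlap. The other large rises were cfi.S, complement factor I (3.5), galnt12.L, which starts mucin-type O-glycans (3.43), klb.L, a co-receptor for endocrine FGFs (3.21), and fbn3.L, a fibrillin of the extracellular matrix, whose median went from 4.78 to 52.2 CPM (3.17 ± 0.22).

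**Figure D2:**
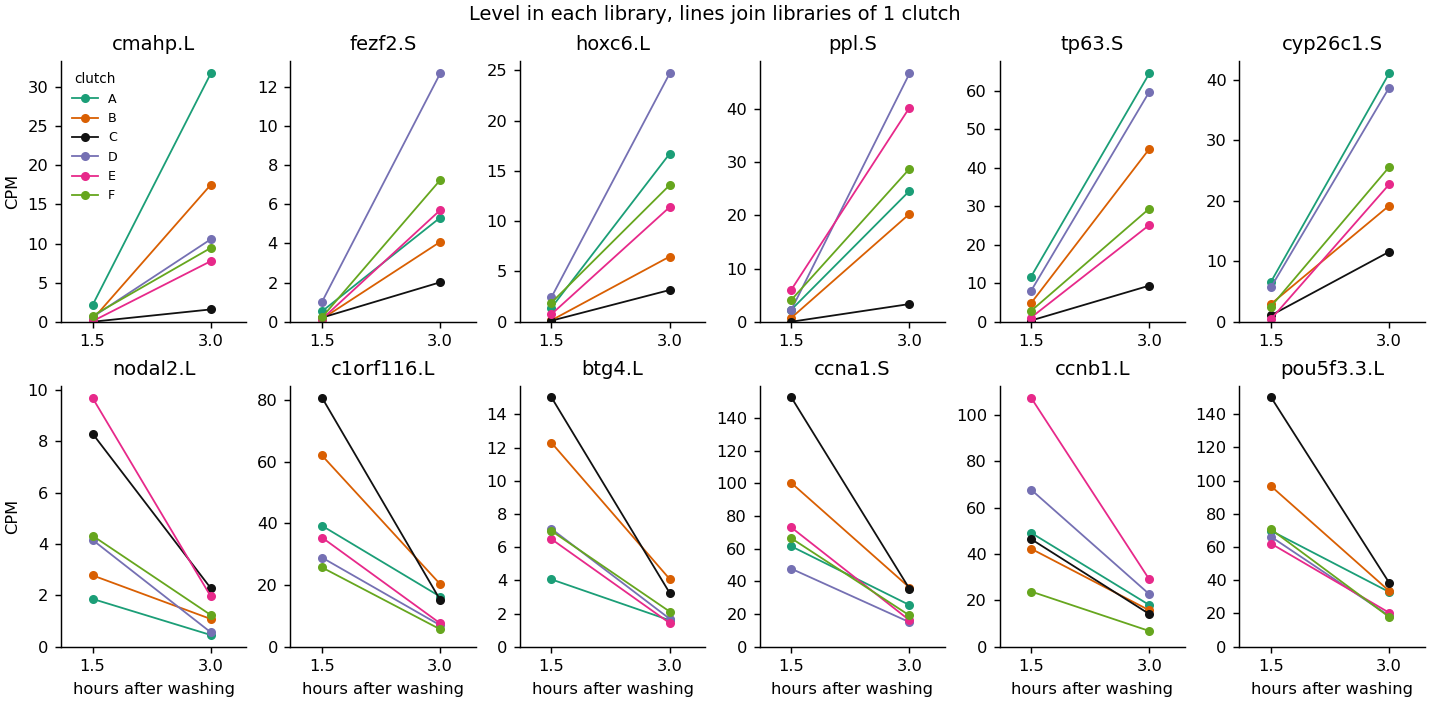
CPM (y axis, from 0) at 1.5 h and 3 h after washing (x axis) for 6 of the genes with the largest rises and 6 with the largest falls, with 1 line and colour for each of the clutches A to F. Every line rises in the upper row and falls in the lower row, and clutch C (black) is lowest at 3 h for cmahp.L (1.58 CPM), fezf2.S (2.02 CPM), hoxc6.L (3.15 CPM), ppl.S (3.33 CPM), tp63.S (9.37 CPM) and cyp26c1.S (11.6 CPM).

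The largest falls were of cyclins, maternal factors and early Nodal ligands. Under the same conditions each of the 12 largest falls was smaller than any of the 12 largest rises. The largest was nodal2.L, a Nodal ligand that induces mesendoderm, from 1.86 to 9.69 CPM (median 4.24) to 0.456 to 2.28 CPM (median 1.16), a log2 fold change of -2.02 ± 0.20 (adjusted p = 5.14e-06, edgeR). Levels of 3 h and 1.5 h libraries overlapped for this gene. For c1orf116.L the levels were 25.7 to 80.8 CPM (median 37.3) and 5.65 to 20.3 CPM (median 11.4), without overlap, and the log2 fold change was -1.94 ± 0.14.

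The embryonic cyclins fell in both homeologs. Cyclin A1, ccna1.S, which drives the rapid early divisions, went from 47.8 to 153 CPM (median 69.8) to 15 to 36.2 CPM (median 22.3), a log2 fold change of -1.75 ± 0.11. Its homeolog ccna1.L went from 77.2 to 210 CPM (median 128) to 19.9 to 59.1 CPM (median 42.3), a log2 fold change of -1.64 ± 0.11. Neither overlapped between time points. The mitotic cyclin B1 showed overlapping ranges, with ccnb1.L at 23.8 to 107 CPM (median 47.8) and 6.79 to 29 CPM (median 16.9), a log2 fold change of -1.65 ± 0.08. The highest ccnb1.L level at either time point was in clutch E and the lowest in clutch F, so the spread between clutches was wider than the step itself. For ccnb1.S the medians were 52 and 18.9 CPM (-1.70 ± 0.11). A further entry, named ccnb1 without a homeolog suffix, was more abundant and fell by less. Its means were 556 and 395 CPM (-0.50 ± 0.11).

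The maternal pluripotency factor pou5f3.3.L (Oct60) fell from 62.1 to 150 CPM (median 70.3) to 17.9 to 38.5 CPM (median 26.7), without overlap, at a log2 fold change of -1.66 ± 0.11. The deadenylation adaptor btg4.L, which in mouse takes part in clearing maternal mRNA, fell by 1.85 ± 0.16 on the log2 scale, and zfp36l2.1.S, an RNA-binding protein that destabilises AU-rich mRNAs, fell by 1.76 ± 0.20. The remaining falls were of cdkn1a.L, the cyclin-dependent kinase inhibitor p21 (-1.64), kiaa0922.S (-1.64) and trim2.L, a ubiquitin ligase (-1.63).

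The most precisely measured changes, those with the smallest adjusted p, were not the largest. Among rises they were b4galnt3.L, a glycosyltransferase (1.61 ± 0.08), vill.L, a villin-like actin-binding protein (3.09 ± 0.15), kit.S, a receptor tyrosine kinase (2.16 ± 0.11), kif26a.L, an atypical kinesin (2.09 ± 0.10), and esrp1.S, a splicing regulator of epithelial cells (1.09 ± 0.06). For kif26a.L the levels were 4.62 to 25.1 CPM (median 18.9) and 30.3 to 104 CPM (median 75), without overlap. For esrp1.S they were 45.3 to 97.3 CPM (median 74.2) and 95 to 202 CPM (median 160), and here the groups overlapped by a narrow margin.

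Among falls the smallest adjusted p belonged to ccnb1.L, xcdc6, a replication licensing factor (-1.33 ± 0.07), rif1.S, which controls replication timing (-1.38 ± 0.08), ppp1cc.L, a catalytic subunit of protein phosphatase 1 (-1.12 ± 0.07), and ccnb1.S. For xcdc6 the levels were 75.1 to 177 CPM (median 98.4) and 28.9 to 57.3 CPM (median 40.3), and for ppp1cc.L 51.3 to 115 CPM (median 58) and 24.6 to 47 CPM (median 28.1). Both genes separated the time points. The entry cdc6.L was more abundant than xcdc6 and fell by less, with means of 403 and 272 CPM (-0.59 ± 0.08). For rif1.S the range was 167 to 537 CPM at 1.5 h and 59.8 to 180 CPM at 3 h, which overlap.

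Gene lists chosen by textbook role, with earlier results of these data known, are described next by their counts. These are set beside the background of 27.3% risen and 27.7% fallen and the median of -0.02 over all genes tested. Some genes stand on more than one list. Members were found by symbol, so genes that the authors had removed as weakly expressed are missing from every list. No test was run over any list.

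Among the ectoderm lists the epidermis moved most uniformly: 43 of 47 genes tested rose and 2 fell, with a median log2 fold change of 0.69. The summed share of counts of the list went from 0.462% to 0.816% (median 0.704%) to 0.735% to 1.14% (median 1.05%). The keratin krt12.L went from 15.9 to 116.2 CPM (median 79.1) to 120 to 342 CPM (median 236), without overlap, with a log2 fold change of 1.74 ± 0.18. The BMP-responsive factor gata2.L, an early regulator of ventral and epidermal fate, went from 53.7 to 311 CPM (median 195) to 250 to 748 CPM (median 525), a log2 fold change of 1.52 ± 0.10. The abundant keratin krt5.7.S had medians of 547 and 1180 CPM (1.19 ± 0.13). Grainyhead factors of the surface ectoderm also rose, with 1.08 ± 0.10 for grhl2.L and 0.84 ± 0.07 for grhl1.L. The 2 falls were the homeologs of foxi2, a factor of the early animal cap, with foxi2.L at 35 to 71.2 CPM and then 16.8 to 40.3 CPM (-1.01 ± 0.10) and foxi2.S at -0.49 ± 0.07.

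Multiciliated cells of the larval skin are specified during gastrulation, and several of their regulators were among the larger rises. Of 38 genes tested, 21 rose and 2 fell, with a median of 0.43. The deuterosome-linked gene cdc20b.L went from 0 to 1.01 CPM (median 0.412) to 0.526 to 7.41 CPM (median 4.11), a log2 fold change of 3.44 ± 0.30, and the forkhead factor foxn4.S rose by 2.72 ± 0.19. The transcription factor myb.L, at 1.58 to 18.1 CPM and then 12.1 to 42.9 CPM, rose by 1.94 ± 0.17, and foxj1.S, the regulator of motile cilia, by 1.63 ± 0.13, from a median of 16.8 to one of 51.6 CPM. Groups overlapped for cdc20b.L, myb.L and foxj1.S. By contrast rfx2.S stood at a median of 175 and then 176 CPM (-0.04 ± 0.07, not called), and ift88.S, a protein of intraflagellar transport, fell by 0.63 ± 0.09.

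Of the neural plate genes, 34 of 49 tested rose and 3 fell, with a median of 0.74. Regional factors gave the largest changes: after fezf2.S came the eye and forebrain factor six3.L (2.87 ± 0.27) and the hindbrain factors gbx2.1.L (2.25 ± 0.29) and gbx2.2.L (2.17 ± 0.27), and gbx2.2.L went from 0.21 to 8.71 CPM to 12.5 to 29.1 CPM without overlap. The Hedgehog effector gli2.S rose from a median of 3.96 to one of 18.1 CPM (2.18 ± 0.14) and the neural adhesion molecule ncam1.L from 3.28 to 15.1 CPM (2.06 ± 0.17). The early pan-neural factor sox3.S fell from 354 to 535 CPM (median 420) to 277 to 429 CPM (median 292), a log2 fold change of -0.40 ± 0.06. zic1.L (0.11 ± 0.09), zic2.L (-0.11 ± 0.08) and zic2.S (0.05 ± 0.07) were not called. The hindbrain factor mafb.L fell from a median of 1.81 to one of 0.978 CPM (-1.27 ± 0.35).

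Neural border and crest genes had a median log2 fold change of 0.95, with 16 of 22 risen and 2 fallen. The border factor pax3.S went from 0.21 to 8.35 CPM (median 3.68) to 15.7 to 33.2 CPM (median 23.8), a log2 fold change of 2.66 ± 0.30, and pax3.L from 0.63 to 19 CPM (median 7.92) to 26.3 to 37.8 CPM (median 35.2), a log2 fold change of 1.95 ± 0.34. Neither overlapped, and the 1.5 h level of clutch C was the lowest for both. The crest factors twist1.S (2.32 ± 0.22), sox8.L (1.68 ± 0.21) and snai2.S (0.90 ± 0.26) rose. The falls were both homeologs of ets1, which the crest shares with blood vessel precursors, at -0.69 ± 0.09 (ets1.L) and -0.49 ± 0.16 (ets1.S).

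**Figure D3:**
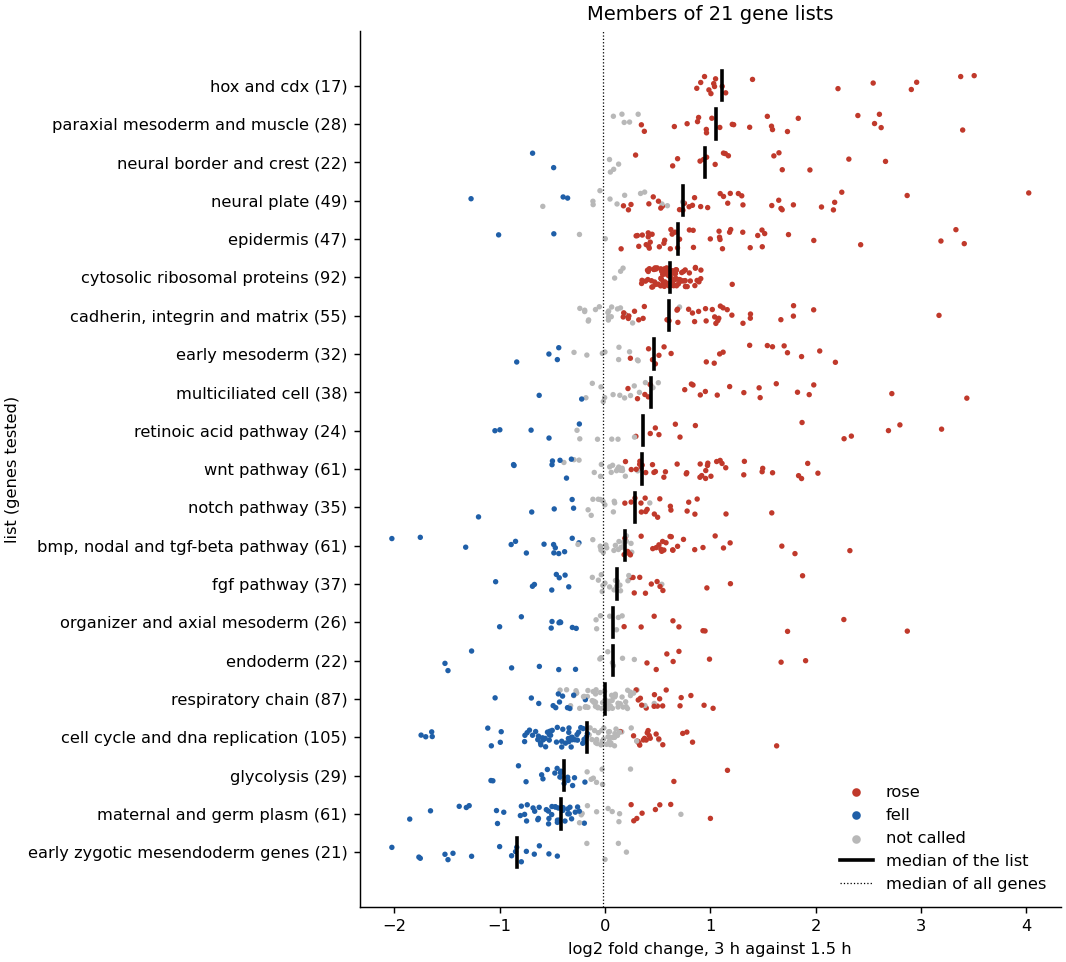
Each row is a list with its number of genes tested in brackets, each point is a gene at its log2 fold change from 1.5 h to 3 h (x axis) coloured by its call, the bar is the median of the list and the dotted line is the median of all genes (-0.02). The medians run from -0.84 for the early zygotic mesendoderm genes to 1.11 for hox and cdx, the cytosolic ribosomal proteins form a narrow band, and lists share genes.

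Of the early mesoderm list 19 of 32 rose and 4 fell (median 0.47). The summed share of counts of the list nevertheless went from a median of 0.313% to one of 0.283%, and was higher at 3 h in 2 of 6 clutches. Brachyury itself, t.L, stood at 252 to 433 CPM (median 340) and 260 to 396 CPM (median 329), a log2 fold change of -0.03 ± 0.09 that was not called. Its homeolog t.S gave 0.31 ± 0.14 (adjusted p = 0.083, edgeR). The largest rises were of foxf1.S (2.19 ± 0.22) and foxf1.L (2.04 ± 0.18), a lateral plate factor, and of the ligand wnt5a.S, from 2.31 to 6.07 CPM (median 3.37) to 6.92 to 18.5 CPM (median 15.8), without overlap (1.87 ± 0.15). The paraxial factor msgn1.L went from 2.21 to 33.2 CPM (median 21.1) to 22.7 to 58.9 CPM (median 46.4), a log2 fold change of 1.37 ± 0.23. The falls were of eomes.S (-0.84 ± 0.07), vegt.L (-0.53 ± 0.11), vegt.S (-0.45 ± 0.10) and gdf3.S (-0.44 ± 0.12), which all act at the start of mesendoderm induction.

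None of the 28 paraxial mesoderm and muscle genes tested fell and 23 rose, with a median of 1.05. The fast myosin light chain myl1.L went from 0 to 0.913 CPM (median 0.205) to 0.526 to 6.4 CPM (median 3.81), a log2 fold change of 3.40 ± 0.44. Segmentation repressors followed, with ripply2.2.L at 0 to 6.19 CPM (median 3.22) and 7.92 to 28.8 CPM (median 19.4), without overlap (2.56 ± 0.27), and ripply2.1.S at 2.62 ± 0.34. The myogenic factors rose by less: myf5.L by 1.58 ± 0.17, myod1.S by 1.22 ± 0.15 and myod1.L by 1.02 ± 0.12. For myod1.S the medians were 28.3 and 59 CPM.

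Organizer genes were split. Of 26 tested, 10 rose and 9 fell, and the median of 0.08 became -0.02 with plain total counts and -0.10 without clutch C. The falls included dorsal lip factors, with gsc.L (goosecoid) from 18.8 to 44.8 CPM (median 26.9) to 8.81 to 19.4 CPM (median 14.6) at -1.0 ± 0.10 and gsc.S at -0.79 ± 0.10, and the notochord factors not.S and not.L at -0.51 ± 0.09 and -0.44 ± 0.07. The rises included head and midline genes: hesx1.S (2.87 ± 0.38), hesx1.L (2.27 ± 0.27), otx2.L (0.95 ± 0.12) and shh.L, the midline signal, from 0.399 to 1.59 CPM to 1.59 to 4.23 CPM (1.73 ± 0.23). The secreted BMP antagonist chrd.L moved from a median of 249 to one of 279 CPM (0.18 ± 0.07, adjusted p = 0.041, edgeR). dkk1.L, dkk1.S and cer1.S, which antagonise Wnt or several ligands, were at 0.11 ± 0.21, -0.04 ± 0.19 and 0.05 ± 0.12 and were not called.

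Of 26 hox and cdx genes with a symbol in the data, 17 passed the filter on low counts, and these 17 rose, with a median log2 fold change of 1.11. Any hox or cdx gene that the authors had removed as weakly expressed carries no symbol and could not be counted. A gene that was rare at 1.5 h could pass the filter through its 3 h libraries, so the count describes the genes that passed and is no measure of the whole family. The cdx genes, hoxa2.S and hoxd1 gave smaller changes, from 0.87 ± 0.19 for hoxd1.S to 1.4 ± 0.22 for cdx1.L, whereas hoxb4.S (2.55 ± 0.26), hoxb1.S (2.91 ± 0.20) and hoxc5.L (2.96 ± 0.31) started from medians of 1.38, 1.21 and 0.588 CPM. For cdx4.S, an upstream regulator of posterior hox genes, the levels were 27.9 to 99.8 CPM (median 80.9) and 108 to 190 CPM (median 153), without overlap (1.11 ± 0.11). For hoxb1.S they were 0.105 to 2.33 CPM and 2.54 to 17.3 CPM. The median change of the 17 genes within a clutch was 2.34 in clutch C and 0.853 to 1.37 in the other 5, and the fitted median without clutch C was 0.97.

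Endoderm genes did not move as a group either, with 8 of 22 risen and 7 fallen. The median of 0.08 was -0.02 with plain total counts and -0.02 without clutch C. The falls included homeodomain genes that start endoderm formation: mix1.S went from 62.6 to 141 CPM (median 88.8) to 21.4 to 48 CPM (median 35.8), without overlap (-1.49 ± 0.12), bix2.L gave -1.52 ± 0.17 and mixer.S -0.62 ± 0.18. The core endoderm factors sox17a.S (0.03 ± 0.08), sox17b.2.L (-0.04 ± 0.13), gata4.L (0.08 ± 0.09) and gata5.S (0.07 ± 0.10) were not called, while sox17b.1.S fell by 0.28 ± 0.07. The forkhead factors foxa2.L (0.70 ± 0.17) and foxa1.L (0.65 ± 0.11), which act in later gut, rose.

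The list of early zygotic mesendoderm genes, which are switched on soon after the midblastula transition, had the lowest median of the 21 lists, -0.84. Of the 21 genes tested 17 fell and none rose. For 7 of them all 3 h libraries lay below all 1.5 h libraries, against 2.34% of all genes tested. Besides nodal2.L, nodal1.L fell from 2.13 to 5.57 CPM (median 2.61) to 0.673 to 1.66 CPM (median 0.859), without overlap (-1.75 ± 0.21), and the Wnt target sia1.L fell from a median of 2.95 to one of 1.14 CPM (-1.44 ± 0.27). The exceptions were eomes.L (-0.17 ± 0.10), sebox.L (0.00 ± 0.11), pnhd.L (0.13 ± 0.13) and nodal.L (0.20 ± 0.15), none of them called. nodal.L, the relative of nodal1.L and nodal2.L, stood at medians of 5.82 and 6.92 CPM.

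The RA pathway, the subject of the series, moved in untreated embryos too: 13 of 24 genes rose and 5 fell (median 0.36). The rises included RA-degrading enzymes, with cyp26c1.L from 2.46 to 8.85 CPM (median 5.51) to 18.4 to 53.3 CPM (median 35.2), without overlap (2.80 ± 0.16), and the better known cyp26a1.L from 80.6 to 210 CPM (median 159) to 201 to 275 CPM (median 222), where clutches overlapped (0.67 ± 0.12). They also included genes of retinoid storage and handling: lrat.L, which esterifies retinol (2.34 ± 0.23), crabp2.L, which carries RA to its receptor (1.87 ± 0.11, medians 40.8 and 155 CPM), and dhrs3.L, which reduces retinaldehyde back to retinol (0.71 ± 0.12). The retinol-binding protein gene rbp2.L fell (-0.70). On the synthesis side aldh1a2.L, the main retinaldehyde dehydrogenase of the gastrula, stood at 108 to 233 CPM (median 151) and 125 to 210 CPM (median 160), a log2 fold change of 0.06 ± 0.06 that was not called. The retinol dehydrogenase rdh10 moved in opposite directions by homeolog, with rdh10.L at 0.51 ± 0.07 and rdh10.S at -0.24 ± 0.06. The receptor rxrg.L fell from a median of 9.77 to one of 4.99 CPM (-1.05 ± 0.15). The number of falls in this list was 3 without clutch A, without clutch C or without clutch E.

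In the Wnt pathway 37 of 61 genes rose and 7 fell (median 0.35). Among ligands, wnt8b.S (1.49 ± 0.24) and wnt4.S (1.93 ± 0.39) rose, while wnt8a.L, the ventrolateral ligand of the early gastrula, had medians of 101 and 84.3 CPM (-0.29 ± 0.12, not called). Of the receptors, fzd10.S went from 16.1 to 69.8 CPM (median 55.4) to 75.7 to 170 CPM (median 132), without overlap (1.50 ± 0.12), and fzd1.L fell by 0.86 ± 0.12. The direct target sp5.S rose from a median of 6.6 to one of 25.4 CPM (1.84 ± 0.31). Secreted antagonists went both ways, with sfrp1.L at 2.02 ± 0.25 and frzb.S at -0.50 ± 0.13. The R-spondin receptor lgr4 moved in opposite directions by homeolog. lgr4.L fell by 0.87 ± 0.11, from a mean of 23.6 to one of 13.0 CPM. The more abundant lgr4.S rose by 0.35, from a mean of 54.7 to one of 69.2 CPM.

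The FGF pathway was near the background, with 12 of 37 genes risen and 8 fallen (median 0.12). Without clutch D the falls were 5. The decoy receptor fgfrl1.L rose from 1.05 to 5.46 CPM to 5.16 to 17.6 CPM (1.88 ± 0.16) and the receptor fgfr4.L from a median of 263 to one of 350 CPM (0.52 ± 0.08). The ligand fgf8.L had medians of 50.7 and 49.4 CPM (0.00 ± 0.06, not called). Feedback phosphatase dusp4.L fell by 1.04 ± 0.17 and spry1.S by 0.34 ± 0.07, whereas spry4.S rose by 0.97 ± 0.13.

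Of the BMP, Nodal and TGF-beta genes 28 of 61 rose and 14 fell (median 0.19). The BMP ligands and targets that rose included gdf6.S at 2.33 ± 0.28, bmp4.S from 32.4 to 78.7 CPM (median 72.1) to 84.2 to 111 CPM (median 97.1), without overlap (0.62 ± 0.11), and the target msx1.S from a median of 54.3 to one of 107 CPM (1.13 ± 0.09). The ligand gene bmp7.2.L fell by 0.31 ± 0.09, whereas bmp7.1.L (0.75 ± 0.11) and the rarer bmp7.1.S (1.19 ± 0.22) rose. bmp2.L (0.01 ± 0.21) and bmp2.S (0.25 ± 0.15) were not called. The target ventx1.2.S (0.13 ± 0.08) was not called either, while ventx1.1.S (0.51 ± 0.08) and ventx1.1.L (0.24 ± 0.09) rose. The modulator bmper.L rose by 1.68 ± 0.13. Several Nodal components fell: the ligands named above, the antagonists dand5.L (-1.32 ± 0.11), lefty.S (-0.85 ± 0.15) and lefty.L (-0.75 ± 0.10), the co-receptor tdgf1.3.L (-0.49 ± 0.09) and the nuclear partner foxh1.L (-0.47 ± 0.11). A rarer co-receptor gene, tdgf1.2.S, rose from a median of 0.251 to one of 2.17 CPM (1.80 ± 0.33).

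Notch genes mostly rose, 19 of 35 against 5 that fell (median 0.28), and by small amounts. The ligand dll1.L went from a median of 132 to one of 195 CPM (0.63 ± 0.10) and the feedback target nrarp.L from 252 to 399 CPM (median 353) to 413 to 555 CPM (median 430), without overlap (0.47 ± 0.08). Larger changes came from the effector repressors hes5.1.S (1.58 ± 0.18) and hes1.S (1.15 ± 0.13). bcl6.L, which represses Notch targets, fell by 1.2 ± 0.17, jag1.S by 0.70 ± 0.09, and the nuclear mediator rbpj.L by 0.30 ± 0.05, while jag1.L rose by 0.34 ± 0.07.

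Cell cycle and replication genes fell more often than they rose, with 53 of 105 against 20 (median -0.17), and their summed share of counts went from a median of 1.74% to one of 1.51%. After the cyclins came replication and S-phase genes, e2f1.L (-1.11 ± 0.12), mcm3.L (-1.08 ± 0.11) and dnmt1.L, the maintenance DNA methyltransferase, at 200 to 321 CPM (median 265) and 122 to 180 CPM (median 159), without overlap (-0.76 ± 0.06). The maternal kinase wee2 fell by 0.76 ± 0.09 and its zygotic relative wee1.L rose by 0.41 ± 0.08. Of 14 MCM genes 6 rose, among them mcm6.2.L (0.83 ± 0.08), mcm6.2.S (0.74 ± 0.07), mcm5.S (1.63 ± 0.17) and a separate entry named mcm3 (0.40 ± 0.08). The 3 that fell were mcm3.L, mcm6.L (-0.34 ± 0.08) and mcm10.L (-0.32 ± 0.09). Cyclin B3, ccnb3.L, rose by 0.38 ± 0.08 and ccnd1.S by 0.49 ± 0.09.

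Maternal and germ plasm genes fell in 43 of 61 cases and rose in 8 (median -0.42), and the list took a median of 0.776% of counts at 1.5 h and 0.628% at 3 h. Besides pou5f3.3.L and btg4.L, the translational repressor cpeb1 fell through both homeologs (cpeb1.S -1.32 ± 0.12, cpeb1.L -1.29 ± 0.13) and velo1.L, which organises the Balbiani body, from 45.8 to 78.3 CPM (median 56.4) to 21.3 to 39.3 CPM (median 28.5), without overlap (-1.02 ± 0.09). The germ plasm gene grip2.L had medians of 88.4 and 44.1 CPM (-0.80 ± 0.15), with ranges that overlapped widely. The rises were of h1fx.S, a linker histone (1.0 ± 0.10), pou5f3.1, the zygotically expressed relative of pou5f3.3.L, from a median of 605 to one of 872 CPM (0.62 ± 0.08), trim36.S (0.52 ± 0.08), wnt11b.L (0.48 ± 0.10) and 4 others of at most 0.35.

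Adhesion and matrix genes rose in 37 of 55 cases and none was called as fallen (median 0.61), although with plain total counts 2 fell. The laminin chain lamb1.L went from 10.2 to 94.5 CPM (median 76.6) to 124 to 307 CPM (median 239), without overlap (1.98 ± 0.19), N-cadherin, cdh2.L, from a median of 2.95 to one of 12.1 CPM (1.79 ± 0.18) and perlecan, hspg2.L, from 189 to 406 CPM (1.08 ± 0.09). The fibronectin receptor subunit itgb1.L stood at 417 and 428 CPM (0.06 ± 0.05, not called). Its homeolog itgb1.S rose by 0.22 ± 0.05, and the partner subunit rose in both homeologs (itga5.L 0.69 ± 0.08, itga5.S 0.32 ± 0.08).

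Of 92 genes for cytosolic ribosomal proteins 89 rose and none fell, and they did so by similar amounts, with a median of 0.61, an extreme of 1.21 ± 0.09 for rps12.L, and 1 gene past 2-fold. Their summed share went from 0.304% to 0.656% of counts (median 0.459%) to 0.442% to 0.863% (median 0.661%), and it was higher at 3 h in 6 of 6 clutches. No ribosomal protein gene separated the time points, where 2.66% of all genes tested lay wholly above and 2.34% wholly below. rps12.L lay at 7.36 to 30.8 CPM and then at 19.1 to 67.4 CPM. The 3 genes not called were rplp0.S (0.09 ± 0.09), rps18.L (0.15 ± 0.08) and rpsa (0.17 ± 0.08). With plain total counts 89 rose as well, with a median of 0.52.

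Energy genes gave other counts. Of 87 respiratory chain genes 59 were not called, with 16 risen and 12 fallen and a median of 0.00 that was -0.10 with plain total counts, where 11 rose and 25 fell. Without clutch F 9 rose, and without clutch E 7 fell. The succinate dehydrogenase subunit sdhb.S rose from a median of 29.1 to one of 62.1 CPM (0.94 ± 0.09) and cox5b.2.L fell by 1.04 ± 0.18. Glycolysis genes fell in 18 of 29 cases and rose in 2 (median -0.39). Phosphoglycerate kinase, pgk1.L, went from 47 to 111 CPM (median 85.9) to 24.5 to 57.1 CPM (median 38.3), a log2 fold change of -1.08 ± 0.07, and gapdh.L from a median of 102 to one of 66 CPM (-0.60 ± 0.06). The rises were of hk1.L, a hexokinase (1.16 ± 0.19), and pdk4.L, which restrains pyruvate dehydrogenase (0.65 ± 0.22).

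Clutches covered different stretches of the same change. Each library was placed on the step fitted without its own clutch, where 0 is the mean of the other 5 clutches at 1.5 h and a distance of 1 is their mean step, a measure added after seeing the data. The reference leaves out a different clutch each time. Positions of different clutches are therefore not on 1 common scale, and small differences between them do not give an order. Clutch C went from -0.65 to 0.35 and clutch D from 0.39 to 1.31. The others went from 0.20 to 0.93 (A), 0.01 to 0.78 (B), -0.02 to 1.04 (E) and 0.33 to 1.23 (F). At 1.5 h clutch A, labelled 11.5, stood at 0.20, and clutches D and F, labelled 11, at 0.39 and 0.33. Differences of this size give no order between these clutches. At 3 h the clutches labelled 12 lay at 0.93 to 1.31 and those labelled 11.5 at 0.35 and 0.78.

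The length of the step was compared between clutches labelled with a smaller and a larger difference in stage. The slope of a clutch's own changes on the fold changes fitted without it was 0.960 ± 0.088 (SD, n = 3) in clutches D, E and F, labelled 11 and 12, and 0.830 ± 0.146 (SD, n = 3) in clutches A, B and C, which moved from 11.5 to 12 or from 11 to 11.5. The difference of 0.13 gave p = 0.3 in an exact permutation test, 2-sided, whose smallest possible p is 0.1. The single slopes were 0.727 (A), 0.767 (B), 0.997 (C), 0.919 (D), 1.06 (E) and 0.900 (F). The slope of clutch C, though labelled with the smaller difference, lay within the range of those of clutches D, E and F. Each slope refers to the step of a different set of clutches, so the slopes too are not on 1 common scale.

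**Figure D4:**
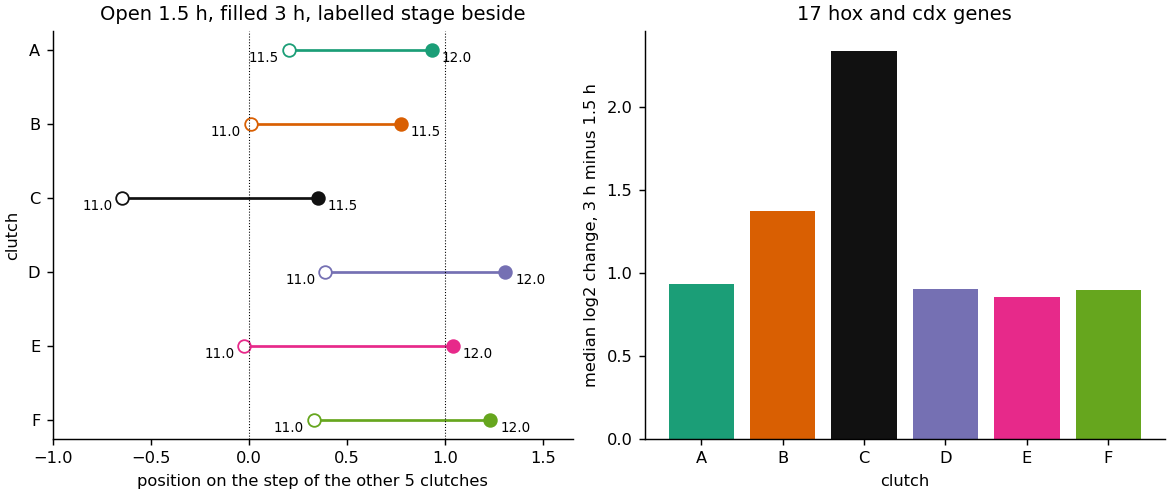
Left, the position of each library on the step of the other 5 clutches (x axis, no unit), open at 1.5 h and filled at 3 h, with the labelled stage beside it and clutches on the y axis. Right, the median log2 change of the 17 hox and cdx genes within each clutch (bars from 0), which is 2.34 in clutch C and 0.853 to 1.37 elsewhere.

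The step was then set against the control steps before and after it, in a fit of all 24 control libraries in which the difference of steps was tested as 1 contrast, since neighbouring steps share libraries. Against the step from 0 to 1.5 h, 3 of 20295 genes (0.0148%) differed: zfand4.S, whose mean went from 15.8 to 5.6, 6.71 and 12.3 CPM over the 4 time points (difference 1.70 ± 0.26, adjusted p = 0.0174, edgeR), plk3.S, a stress-responsive kinase, at 76.3, 48.9, 63.0 and 69.7 CPM (1.03 ± 0.15), and LOC108711331, at 209, 240, 153 and 102 CPM (-0.84 ± 0.13). Each turned at 1.5 h. In all 2189 genes had an unadjusted p under 0.05, and DESeq2 called 79 genes. Against the step from 3 to 4.5 h edgeR called 0 genes (0%), with 2337 at an unadjusted p under 0.05, and DESeq2 called 42.

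The counts changed without clutch C. Then 176 of 20453 genes (0.861%) differed from the step before, 84 with a more positive and 92 with a more negative step, and 41 (0.2%) from the step after, 20 and 21 of them in the 2 directions. Without clutch B, D, E or F none differed from the step before. Leaving out clutch C gave the most calls, and with all 6 clutches none of the genes named next was called. Their adjusted p with all 6 included 0.19 for cdc20b.L and 0.26 for pax3.L against the step before (edgeR). Against the step after they included 0.098 for fezf2.S and cmahp.L and 0.22 for hoxc6.L and hoxa7.S (edgeR). Among the genes called without clutch C, cilia-related cdc20b.L stood at means of 0.401, 0.492, 4.99 and 19.5 CPM, so its rise began with this step (difference 3.15 ± 0.69), and foxj1.2.L gave 2.85 ± 0.50. For pax3.L the means were 0.461, 11.3, 32.1 and 64.6 CPM and the log2 step was smaller than the one before (-2.96 ± 0.49). Against the step after, the larger rises were of fezf2.S (2.92 ± 0.53), hoxa7.S (2.39 ± 0.48), which did not pass the filter of the control step alone, hoxc6.L (2.13 ± 0.38), cmahp.L (2.01 ± 0.34), myb.S (1.97 ± 0.32) and foxj1.S (1.89 ± 0.32). foxj1.S levelled off, at means of 7.81, 18.2, 54.0 and 43.4 CPM. Falls that ended with this step included fbxo43.L, an inhibitor of the anaphase-promoting complex, at 20.4, 6.12, 2.43 and 3.85 CPM (-1.97 ± 0.29), and frmd6.L at 40.8, 24.8, 20.3 and 54.8 CPM (-1.75 ± 0.23).

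The same interval was measured in embryos of the same clutches that had been treated, in libraries that the control comparison does not use. In ethanol 5318 genes (28.6%) rose and 5764 (31%) fell, in RA 5156 (27.7%) rose and 5665 (30.5%) fell, and in DEAB 5465 (29.2%) rose and 6114 (32.7%) fell. Of the 5074 genes that rose in control embryos, 4456 (87.8%, or 83.8% of the ethanol rises) rose in ethanol, 4413 (87.0%, or 85.6% of the RA rises) in RA and 4550 (89.7%, or 83.3% of the DEAB rises) in DEAB, and 1 gene was called in the opposite direction, in RA. The clutches are the same in all groups, so these counts hold for these 6 females.

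The 32 genes named for the largest changes or the smallest adjusted p were called in the same direction in every treated group in which they were tested. Some had similar and some other sizes, and fezf2.S was not tested in DEAB. cmahp.L gave 4.32 in control, 3.68 in ethanol, 4.17 in RA and 4.30 in DEAB embryos, hoxc6.L gave 3.51, 3.87, 3.13 and 3.89, and ccna1.S gave -1.75, -1.68, -1.82 and -1.68. The fall of cdkn1a.L, an inhibitor of cyclin-dependent kinases, was -1.64 in control and smaller in each treated group, at -0.66, -0.88 and -0.72. For cyp26c1.S the values were 3.2, 3.38, 2.32 and 3.22. Some other RA-responsive genes had a smaller step after RA. For cyp26a1.L the log2 fold change was 0.67 in control, 0.75 in ethanol and 0.85 in DEAB embryos against -0.10 in RA embryos. For dhrs3.L the values were 0.71, 0.86, 0.72 and, in RA, 0.07.

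Tested directly, these differences did not pass. The interaction of time and treatment over 48 libraries gave, for control minus RA, 0.72 ± 0.33 for cyp26a1.L and 0.53 ± 0.32 for dhrs3.L. Their unadjusted p were 0.036 and 0.10 (edgeR). For cyp26a1.S the difference was 0.87 ± 0.36, with an unadjusted p of 0.020 (edgeR). The adjusted p was 0.9998 for each of these genes (edgeR). Over all 20997 genes the step differed from that in RA for 0 genes (0%), from that in DEAB for 0 (0%) and from that in ethanol for 1 (0.00476%), with 534, 479 and 573 genes at an unadjusted p under 0.05, and DESeq2 called 0 in each. Chance alone would give more genes than these at an unadjusted p under 0.05, so the edgeR test was conservative. A count of 0 does not show that the steps were the same. The 1 gene, Xelaev18018969m (-4.88, adjusted p = 0.0432, edgeR), had at most 6 counts in all 40 libraries of the other clutches. In clutch B it had 2 counts in ethanol at 1.5 h, 190 in ethanol at 3 h and 67 to 186 in the other 6 libraries, so the call rests on 1 library, and without clutch B no gene was called.

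The L and S homeologs of a gene were compared pair by pair. Of 2644 pairs in which both could be tested, both rose in 535 and both fell in 575, 1 of them was called in 956, neither in 454, and in 124 the homeologs went in opposite directions. Across pairs, which are not independent replicates, Pearson's r between the L and S log2 fold changes was 0.665. The log2 ratio of L to S within a library, which scaling does not touch, rose for 574 pairs (21.7%) and fell for 469 (17.7%) at an adjusted p under 0.05 (limma with clutch as a block), including all 124 opposite pairs. Without the block 92 rose and 62 fell. The 124 opposite pairs were picked by calls in these same libraries, so a ratio call for all of them was nearly fixed beforehand.

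The pairs with the smallest adjusted p show several forms of this. For usp32, a ubiquitin protease, L rose from a mean of 73.2 ± 13.2 to 137 ± 34.3 CPM (SD, n = 6) while S fell from 38.3 ± 4.76 to 26.7 ± 2.64 CPM, and the L to S log2 ratio rose by 1.39 ± 0.07 in 6 of 6 clutches (adjusted p = 1.33e-07, limma). For aim1, L fell by 0.15 on the log2 scale and S rose by 1.53, and the ratio changed by -1.70 ± 0.10. The ratio rose for ccdc68 (2.2 ± 0.16), bpgm, a red cell glycolytic mutase (1.77 ± 0.14), and st3gal1, a sialyltransferase (1.77 ± 0.14), in each of which L rose and S fell. For btg1, an antiproliferative factor, L rose by 0.60 and S, at 0.10, was not called, with a ratio change of 0.50 ± 0.04.

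Some opposite pairs belong to the lists above. For irx3, a neural plate factor, L fell (-0.35) and S rose (1.67), with L going from 32.4 to 25.02 CPM and S from 4.21 to 14.1 CPM, so that the homeologs came closer (ratio change -2.07 ± 0.17). For notum, a secreted Wnt deacylase, L fell (-0.50) and S rose (1.32), from 27.4 to 19.5 CPM and from 23.3 to 54.1 CPM, a ratio change of -1.86 ± 0.15. For serpinh1, a collagen chaperone, L fell (-0.30) and S rose (2.24) but stayed the rarer, at 6.25 against 37.3 CPM.

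**Figure D5:**
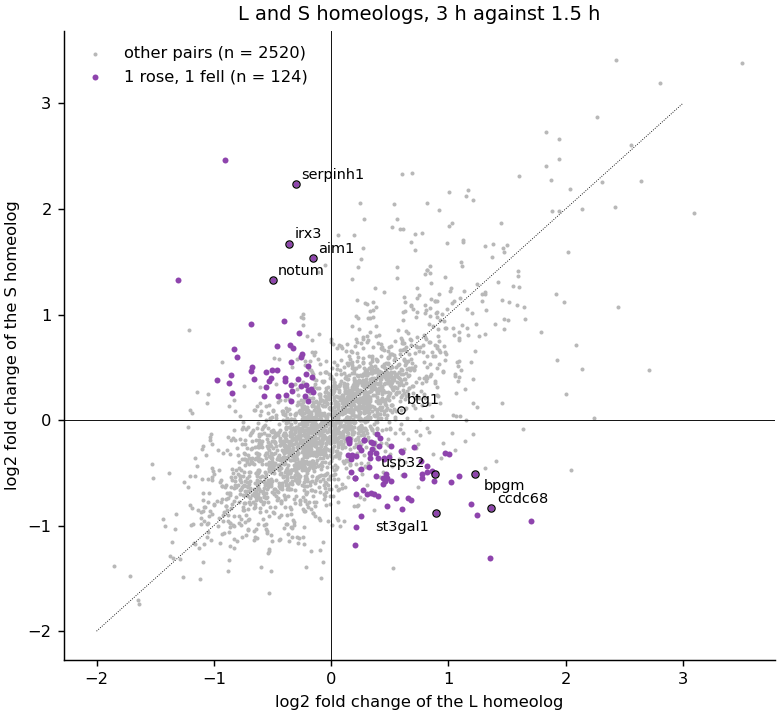
Each point is 1 of the 2644 pairs, with the log2 fold change from 1.5 h to 3 h of the L homeolog on the x axis and of the S homeolog on the y axis, and the 124 pairs in which 1 rose and 1 fell in purple. The cloud of points runs along the dotted line of equal change (r = 0.665) and the purple points lie in the upper left and lower right quadrants.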

How the data were processed

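Total RNA of pooled whole embryos was sequenced. The authors aligned reads with STAR to the X. laevis 9.1 genome and counted them with verse, and the counts per gene are raw as deposited. Versions and strand handling are not given in the sources used here. The deposited log2 values (16322 genes, 72 libraries) were made by the authors with DESeq2's regularized log, then ComBat, removal of weakly expressed genes and quantile normalization, and served as an alternative. Symbols are those of the deposited log2 values, so genes of the count table outside them carry no symbol. No coordinates are given, and 0 columns belonged to no sample.

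The step was fitted in edgeR 4.0.16 (R 4.3.3) by quasi-likelihood (TMM, filterByExpr, clutch as a block, Benjamini-Hochberg at 0.05). The SE of a log2 fold change was taken as its absolute value divided by the root of F. Ratios of L to S were tested with limma 3.58.1 on log2 CPM with a prior count of 2. CPM are TMM-scaled. Libraries were paired by clutch: the labels give each clutch as 1 female, and the deviations of its 2 libraries from the time point means correlated at 0.693 to 0.764, above any other pairing (at most 0.302), in 6 of 6 clutches. Total counts were 6854309 to 14570310. The SE gives the uncertainty of the fitted change over these clutches and not the range of single clutches. For cmahp.L, at 4.32 ± 0.27, the log2 CPM changes of single clutches ran from 3.29 to 5.23.

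Alternatives were DESeq2 1.42.0, no filter, no block, total counts, upper quartile scaling, a fit of 24 control libraries, limma on the deposited log2 values, stage in place of time, clutches D, E and F or A, B and C alone, and each clutch left out. A block by clutch and time point together, counts of non-overlapping genes without a clutch, and library positions were added after seeing the data.

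The members and gene lists were chosen with earlier results of these data known. Named genes were those with a symbol, called, changed in the same direction in 6 of 6 clutches and at 5 CPM or more at the higher time point: the 12 largest rises and falls and the 5 of each with the smallest adjusted p. From each list the largest called changes and its textbook members were named, for homeologs the 6 pairs with the smallest adjusted p and opposite pairs on the lists, and for neighbouring steps the called genes. Other examples were chosen after their values were seen. Some genes under this rule are not reported here. On simulated counts the control step called 200 of 200 changed genes and 11 unchanged genes of 18996 tested. The interaction with ethanol called 180 of 200. The difference from the earlier step called 145 of 200 and that from the later step 200 of 200. Changes were 2-fold in the 3 h libraries, in well counted genes, and clutch effects did not vary with time or treatment. The 3 h libraries enter the difference from the later step with a larger weight than the difference from the earlier step. The counts for these differences therefore refer to unlike sizes of difference. The simulation therefore does not give the power of these tests in the real data.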

Additional observations from a re-analysis of the deposited data

Results flagged for a closer look

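Of 56 sets of 6 clutch values examined, 2 held a clutch far from the other 5 by Dixon's test, and chance gives about 1 in 20. The log2 change of cyp26c1.S was 5.28 in clutch E, whose 1.5 h level of 0.41 CPM was the lowest of the 6, and 2.61 to 3.26 in the others. The median change of the hox and cdx genes was 2.34 in clutch C and 0.853 to 1.37 in the others. Against the preceding control step, the difference itself passed the test for zfand4.S (1.70), plk3.S (1.03) and LOC108711331 (-0.84), with clutch as a block, and none of these held without clutch B, D, E or F. Against the ethanol step it passed for Xelaev18018969m (-4.88), whose counts come almost wholly from clutch B, with 2 counts in 1 ethanol library where the others of that clutch have 67 to 190.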

How the results depend on the processing

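The 32 genes named for the largest changes or the smallest adjusted p kept their direction and their call in each of 509 alternative values. These 32 were picked by their size and calls in these same libraries, so this outcome was nearly fixed beforehand. The step calls of the other genes named in the text were not part of this check. The counts of rises and falls (5074 and 5135) lay within 1.5 times under DESeq2 (4610 and 4454), no filter (5557 and 5190), total counts (4047 and 6693), upper quartile scaling, the deposited log2 values (4662 and 5497), stage in place of time and each clutch left out (4396 to 4858 and 4542 to 5044). Without the clutch block they were 1511 and 1189, and in clutches A, B and C alone 3004 and 2976. Without the block ethanol gave 1962 and 1876, RA 1410 and 1440, DEAB 2111 and 1895, and the L to S ratio 92 rises and 62 falls. These losses come with the removal of the clutch term. The 3 genes that differed from the step before became 79 with DESeq2, 5 with total counts, 0 without the block and 0 to 176 with a clutch left out, the highest without clutch C. The 0 that differed from the step after became 42 with DESeq2, 7 without the filter and 0 to 41 with a clutch left out. The 1 gene that differed from ethanol became 0 with DESeq2, 0 without the block and 0 to 1 with a clutch left out, and for RA leaving out a clutch gave 0 to 1. Blocking by clutch and time point together gave 1, 0 and 0 for ethanol, RA and DEAB. List medians changed sign in 16 of 330 values, all in organizer, endoderm and respiratory chain. Where not stated, the cause was not tested. The median SE was 0.237 for a difference between steps and 0.139 for a single step. Levels of rare transcripts rest on few counts.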

Other observations

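By size in CPM rather than in fold, other genes led. Among genes called and changed the same way in 6 of 6 clutches, the largest gain was of ahnak.L, a giant membrane scaffold protein, from 1408 ± 532 to 3246 ± 988 CPM (SD, n = 6), a log2 fold change of 1.25. Next came has1.L, which makes hyaluronan, from 3035 ± 745 to 4230 ± 463 CPM, the translation factor eef1a1.L, from 2804 ± 886 to 3857 ± 1020 CPM, and the cold-inducible RNA-binding protein cirbp.L, from 2235 ± 399 to 3165 ± 371 CPM. Its homeolog cirbp.S and the nucleolar protein ncl.S, at 897 ± 177 and then 1398 ± 284 CPM, also stood among the largest gains. Losses were smaller, led by the histone gene hist1h2bj.L, from 3805 ± 713 to 3190 ± 689 CPM, zswim4.L, from 722 ± 66.9 to 485 ± 67.7 CPM, and the pluripotency factor sall4.S, from 988 ± 112 to 806 ± 125 CPM.

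At the other end, 14 genes were below 1 CPM in every 1.5 h library and at 1 CPM or more in every 3 h library, and 3 showed the reverse. Of the 14, 4 had a symbol: xhoxc8, a posterior hox gene, at 0 to 0.599 CPM and then 1.14 to 6.06 CPM, ca14.S, a carbonic anhydrase, at 0.315 to 0.956 and 1.31 to 4.32 CPM, adck1.L, a mitochondrial kinase, and sema5b.L, an axon guidance protein. These genes were chosen after their values were seen.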
